A study of Mus musculus with 9 samples.

Results

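Asic1, Nvl, Gipr, Adamts2, Tenm4, Plekhf2 and Plcb1 are 7 of the 53379 genes counted in sorted cells of the embryonic mouse forebrain. They were chosen by their measured levels, because each was lower with both GemC1 and Mcidas than with GFP. The same 7 were all of the genes below GFP in both comparisons at an adjusted p under 0.05 (edgeR quasi-likelihood test over 19572 tested genes, Benjamini-Hochberg adjustment), a threshold referred to below as called. That set depended on the settings: 24 genes were lower in both with DESeq2, 29 with no low-count filter, 4 with the replicate block and 1 to 11 with 1 library left out. Their fall is therefore a description of how they were picked and carries no test here.

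The series asks how GemC1 starts the multiciliated cell fate. Embryos of the strain labelled C57Bl6DBa2 were electroporated in utero with plasmids at E14.5 (embryonic age in days), and forebrain cells with GFP, called neural progenitor cells in the labels, were sorted 2 days later at E16.5. The GemC1 group (3 libraries) received pCAGGS-GemC1, the Mcidas group (3 libraries) received a plasmid labelled pCAAGS-Mcidas, and the GFP group (3 libraries) received H2B-GFP; the protocol words the reporter as "and/or", so all sorted cells carried GFP, but the labels do not say how reporter and factor were combined. Both factors came from electroporated plasmids and not from the native genes, and since the labels do not mention litters, a p-value here covers only how far these libraries vary, which may be technical.

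GemC1 and Mcidas are nuclear proteins related to geminin that switch on the genes for building many motile cilia. The 7 genes have varied roles. Asic1 encodes a proton-gated sodium channel of neurons, Gipr the G protein-coupled receptor of the gut hormone GIP, and Plcb1 the phospholipase C that G proteins of the Gq family activate to release inositol trisphosphate and diacylglycerol. Tenm4 encodes a teneurin, a large membrane protein of neuronal contacts that binds latrophilins on other cells, and Adamts2 encodes the secreted protease that trims fibrillar procollagens. Plekhf2 encodes an endosomal protein with PH and FYVE domains, which bind phosphoinositide lipids, and Nvl an AAA ATPase of the nucleolus that acts in the assembly of the large ribosomal subunit.

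Libraries held between 22914704 counts (the third Mcidas library) and 41163917 counts (the second GFP library). The members were counted deeply, from 326 reads for Adamts2 in Mcidas replicate 3 to 18701 reads for Tenm4 in GFP replicate 2. Among 10 markers of multiciliated cells, all 10 were called higher with each factor. Their summed level was 475 to 599 CPM (read counts relative to library size, scaled by TMM) in GemC1 and 753 and 860 CPM in Mcidas replicates 2 and 3, but 453 CPM in Mcidas replicate 1, against 15.9 to 20.8 CPM in GFP. The Mcidas files carry another year code than the rest. Should that code mark a batch, batch and factor cannot be told apart for Mcidas.

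The promoters of members that moved together can be compared directly. RefSeq windows (build GRCm38.p6, 250 bases before to 50 bases after the annotated start) matched 5 of the 7 members in 6 windows, with 2 for Tenm4. The 3 windows shown belong to the members with the deepest falls in GemC1 among those matched, and capitals mark the GC box GGGCGG or its reverse complement. Adamts2 lies at chr11:50601835-50602134 on the plus strand, Nvl at chr1:181144155-181144454 on the minus strand and Plcb1 at chr2:134785914-134786213 on the plus strand. Each is printed 5′ to 3′ along the gene.
Adamts2: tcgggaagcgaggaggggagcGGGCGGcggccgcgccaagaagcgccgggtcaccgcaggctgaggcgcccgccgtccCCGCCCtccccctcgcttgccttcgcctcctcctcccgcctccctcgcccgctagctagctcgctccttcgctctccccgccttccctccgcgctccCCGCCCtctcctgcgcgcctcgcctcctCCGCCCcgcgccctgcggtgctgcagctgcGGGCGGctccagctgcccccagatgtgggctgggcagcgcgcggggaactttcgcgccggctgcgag
Nvl: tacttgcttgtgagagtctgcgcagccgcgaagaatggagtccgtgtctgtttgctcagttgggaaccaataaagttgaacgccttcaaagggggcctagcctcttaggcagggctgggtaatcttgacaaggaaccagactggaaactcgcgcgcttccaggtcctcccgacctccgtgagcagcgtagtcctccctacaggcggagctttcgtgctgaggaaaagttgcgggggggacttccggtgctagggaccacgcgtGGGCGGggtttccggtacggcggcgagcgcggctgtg
Plcb1: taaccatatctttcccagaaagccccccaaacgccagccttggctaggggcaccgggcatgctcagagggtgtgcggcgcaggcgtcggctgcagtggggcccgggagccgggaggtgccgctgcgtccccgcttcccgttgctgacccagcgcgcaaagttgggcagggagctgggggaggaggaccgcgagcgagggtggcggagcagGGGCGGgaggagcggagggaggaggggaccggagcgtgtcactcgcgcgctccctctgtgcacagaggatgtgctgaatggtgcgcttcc

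The 3 windows differ in base composition. Adamts2 held 77.3% G or C, 41 CpG dinucleotides and 5 GC boxes, Plcb1 held 69.7%, 26 and 1, and Nvl held 60.3%, 24 and 1, against medians of 52.7% and 7 CpG over 32851 promoter windows. The single GC box of Nvl stands after the annotated start. The windows of Asic1 and Tenm4 lay nearer these medians in CpG count. Asic1 held 59.7% G or C and 7 CpG, and the Tenm4 windows held 52.0% and 6, and 52.3% and 12. None of these windows had a GC box, and 35.7% of all windows hold at least 1. The Asic1 window (chr15:99691974-99692273) and the second Tenm4 window (chr7:96211421-96211720) lie inside the gene spans, away from their first base. No window at the start of the Asic1 span was examined. The E2F letters GCGGGAA were found in 0 of the 6 member windows (4.6% of all windows), the RFX half-site letters GTTGCC in 0 (12.5%) and the TATA letters TATAAA in 0 (13.6%). The CHR letters TTTGAA and the NF-Y letters CCAAT were each found in 1 window, that of Nvl, against 17.9% and 37.4% of all windows. Both strands were searched and motifs may overlap. A match or its absence describes only these letters in these windows.

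Asic1, the acid-sensing channel gene (ENSMUSG00000023017, chromosome 15, 99670368 to 99701130 of GRCm38), had 41.4, 38.3 and 43.4 CPM in the GemC1 libraries, 39.2, 40.4 and 40.6 CPM in the Mcidas libraries, and 53.9, 54.3 and 58.7 CPM in the GFP libraries. The 6 factor libraries lay close together, all below the lowest GFP library. The log2 fold change was -0.44 ± 0.09 (SE) for GemC1 and -0.47 ± 0.09 for Mcidas.

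Gipr, the GIP receptor gene (ENSMUSG00000030406, chromosome 7, 19156061 to 19166127), had 22.6, 25.1 and 21.5 CPM with GemC1, 27.4, 22.1 and 21.9 CPM with Mcidas, and 31.5, 34.2 and 40.1 CPM with GFP. Mcidas replicate 1 was the highest of the 6 factor libraries and still below each GFP library. Fold changes were -0.61 ± 0.13 (SE, log2) in GemC1 and -0.57 ± 0.13 in Mcidas.

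Plcb1, the phospholipase C gene (ENSMUSG00000051177, chromosome 2, 134786067 to 135475258), had 245, 221 and 245 CPM in GemC1, 234, 190 and 235 CPM in Mcidas, and 310, 351 and 332 CPM in GFP. Mcidas replicate 2 was the lowest library. The level with GemC1 was 71.6% of the GFP mean and with Mcidas 66.4%, or -0.48 ± 0.10 (SE) and -0.59 ± 0.10 on the log2 scale. An antisense gene inside the locus, 9630028H03Rik, shares exon bases with Plcb1, with 4.85 to 5.85% of its count in each library. It had -0.47 ± 0.15 in GemC1 (adjusted p = 0.11, edgeR) and fell by 0.62 ± 0.16 in Mcidas (adjusted p = 0.0405). The kits do not mark strand, so reads of the pair cannot be told apart where they overlap.

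**Figure D1:**
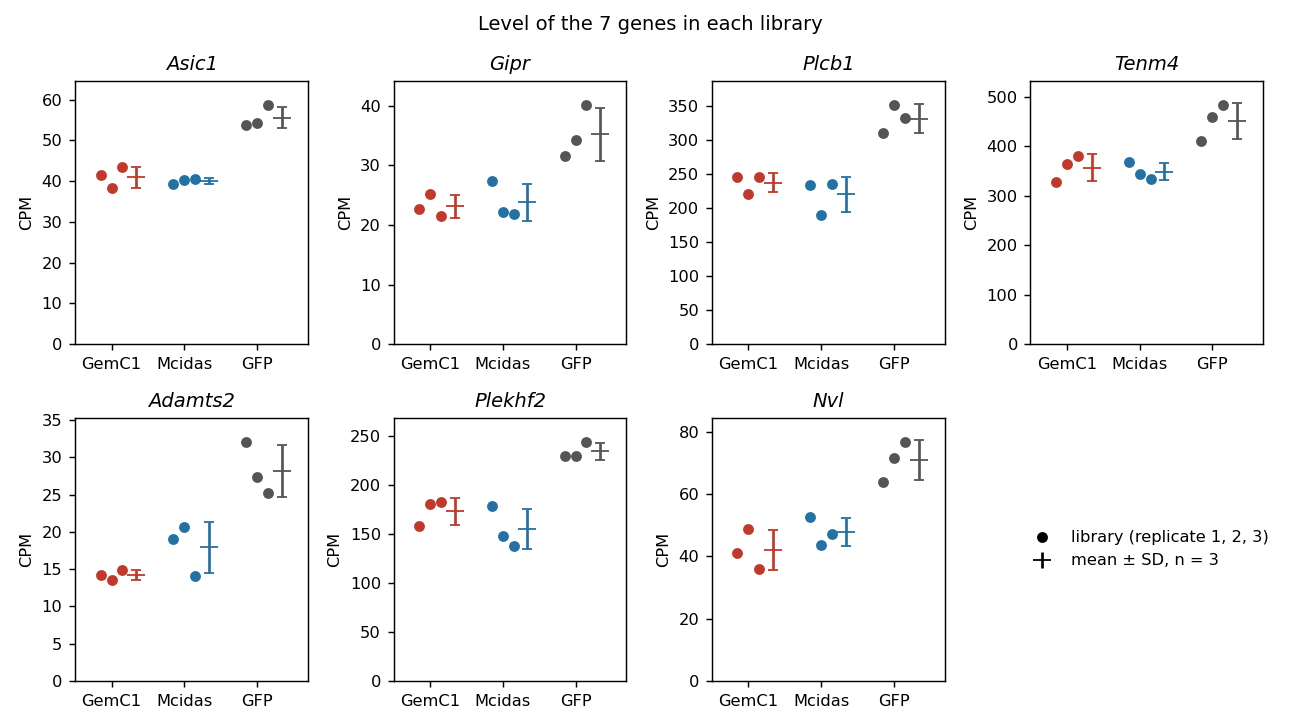
Level in CPM (vertical axes from 0) of each of the 7 genes in the 3 GemC1, 3 Mcidas and 3 GFP libraries; circles are libraries and bars the mean ± SD. In each panel the 6 factor libraries lie below the 3 GFP libraries, with Adamts2 at 14.2 ± 0.641 CPM in GemC1 and 28.2 ± 3.51 CPM in GFP.

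Tenm4, the teneurin gene (ENSMUSG00000048078, chromosome 7, 96171246 to 96911093), had 328, 365 and 380 CPM with GemC1, 369, 344 and 335 CPM with Mcidas, and 412, 459 and 484 CPM with GFP. It had the smallest estimated fall of the 7 in both comparisons, with -0.34 ± 0.09 (SE, log2) in GemC1 and -0.37 ± 0.09 in Mcidas. The transcript C230038L03Rik on the other strand shares exon bases with it, at 4.55 to 6.76% of the Tenm4 count, and fell by 0.64 ± 0.14 in GemC1 (edgeR adjusted p = 0.0162), with -0.21 ± 0.14 in Mcidas (adjusted p = 0.607).

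Adamts2, the procollagen protease gene (ENSMUSG00000036545, chromosome 11, 50602084 to 50807573), had the largest estimated fall of the 7 in GemC1. It had 14.2, 13.6 and 14.9 CPM in the GemC1 libraries, 19.0, 20.6 and 14.1 CPM in the Mcidas libraries, and 32.1, 27.4 and 25.2 CPM in the GFP libraries. The GemC1 libraries were nearly level, whereas Mcidas replicate 3 sat with GemC1 and the other Mcidas libraries stood between GemC1 and GFP. The mean in GemC1 was 50.4% of that in GFP, a log2 fold change of -0.99 ± 0.16 (SE), and in Mcidas 63.5%, at -0.65 ± 0.15. The Mcidas value was within 1 SE of those of Plekhf2, Plcb1, Gipr and Nvl, and it was -0.51 without Mcidas replicate 3.

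Plekhf2, the endosomal PH and FYVE domain gene (ENSMUSG00000049969, chromosome 4, 10988662 to 11007927), had 158, 180 and 182 CPM in GemC1, 178, 148 and 138 CPM in Mcidas, and 229, 229 and 244 CPM in GFP. The GFP libraries varied little, with a coefficient of variation of 3.69%. The mean was 74.0% of GFP with GemC1 and 66.1% with Mcidas, with log2 fold changes of -0.43 ± 0.10 (SE) and -0.60 ± 0.10.

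Nvl, the nucleolar ATPase gene (ENSMUSG00000026516, chromosome 1, 181087138 to 181144204), had 41.2, 48.9 and 35.9 CPM with GemC1, 52.6, 43.7 and 47.3 CPM with Mcidas, and 64.0, 71.5 and 76.8 CPM with GFP. GemC1 replicate 3 was the lowest library and GFP replicate 3 the highest. Fold changes were -0.75 ± 0.12 (SE, log2) in GemC1 and -0.56 ± 0.12 in Mcidas. The pseudogene Fgfr3-ps shares exon bases with Nvl, at 3.48 to 7.9% of its count, and was not called in GemC1 (-0.75 ± 0.36, edgeR adjusted p = 0.279) or Mcidas (-0.74 ± 0.36, adjusted p = 0.438).

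**Figure D2:**
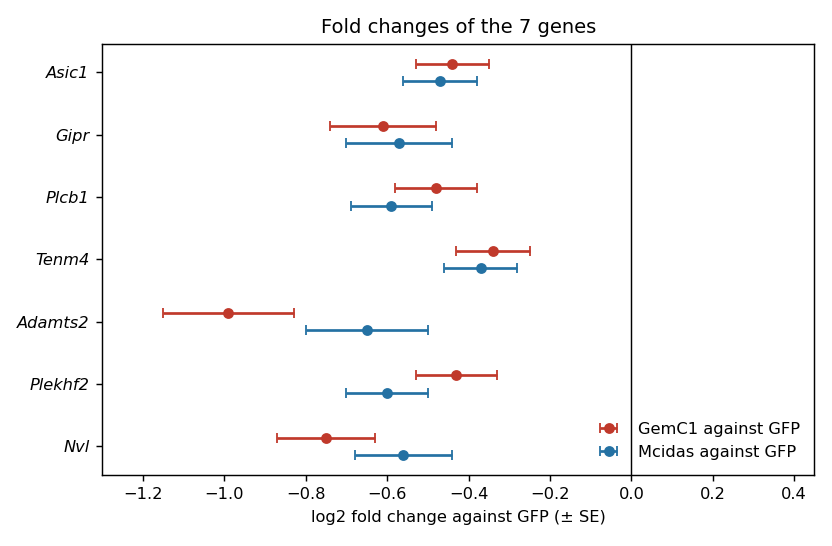
Log2 fold change against GFP (horizontal axis, ± SE) of the 7 genes in GemC1 and in Mcidas, from the same fit and with the same 3 GFP libraries. GemC1 values run from -0.99 (Adamts2) to -0.34 (Tenm4) and Mcidas values from -0.65 (Adamts2) to -0.37 (Tenm4).

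As the choice of the members requires, 7 of 7 were called lower in GemC1, where 1.32% of tested genes were, and 7 of 7 in Mcidas, where 0.327% were. All 3 libraries of a factor lay below all 3 of GFP for the 7 members in each comparison. That held for 11.7% of tested genes in GemC1 and for 8.87% in Mcidas. The median of the members was -0.48 in GemC1 and -0.57 in Mcidas, against a median of 0.00 and -0.03 over all genes tested. Tenm4 lay just inside the threshold that picked the members. Just outside lay Frmd6, at -0.42 ± 0.12 (SE) in GemC1 and -0.71 ± 0.12 in Mcidas, and Hist3h2a, at -0.43 ± 0.12 and -0.53 ± 0.12, both named after their values were seen and both with larger falls than Tenm4. The comparisons share the 3 GFP libraries, and the count of calls depended on single libraries. Without GFP replicate 2, 0 of the 7 were called in both comparisons (2 in GemC1 and 3 in Mcidas), and without GFP replicate 3, 2 were (3 and 3). It was 4 without GemC1 replicate 1, 4 without Mcidas replicate 2 and 3 without Mcidas replicate 3. Over 15 alternatives the fold changes ran from -1.06 to -0.27 in GemC1 and from -0.76 to -0.31 in Mcidas. Their sign was kept, but leaving out a library could hardly reverse it, given the separation that came with the choice. The kept sign is therefore no support.

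Because no member overlapped with GFP, the median member had to be lower in each of the 6 factor libraries than in any GFP library. Relative to the GFP mean, the median member lay at -0.57, -0.53 and -0.43 (log2 CPM) in GemC1 replicates 1, 2 and 3 and at -0.42, -0.66 and -0.58 in Mcidas replicates 1, 2 and 3, while the GFP libraries had -0.09, -0.03 and 0.08. Leaving out Mcidas replicate 1 kept 7 of 7 members called in both comparisons. These values are those that picked the members, so they describe the choice and are no support.

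GemC1 against Mcidas asks whether the factors differ in how far they lowered these genes. The choice of the members did not use this difference itself, but it used the same 6 factor libraries and asked both groups to be below GFP, which favours genes at like levels in both. The counts that follow are therefore conditioned by the choice, and nothing is read from them against the shares of all genes. No member was called, where 0.0358% of tested genes were called lower in GemC1 than in Mcidas and 0.0153% higher. None of the 7 had an unadjusted p under 0.05, and DESeq2 called 0 of them too. Groups overlapped for 7 of 7 members, whereas 7.64% of tested genes had all GemC1 libraries below all Mcidas libraries and 9.07% had them above.

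The intervals leave room for differences as large as some of the members' falls against GFP. Adamts2 had -0.34 ± 0.16 (SE, log2; 95% interval -0.67 to 0.00; edgeR adjusted p = 0.388), with 14.2 ± 0.641 CPM in GemC1 and 17.9 ± 3.39 CPM in Mcidas (SD, n = 3 each). Nvl had -0.19 (interval -0.46 to 0.08) and Gipr -0.05 (interval -0.34 to 0.25). Plekhf2 leaned towards a higher level in GemC1, at 0.16 (interval -0.05 to 0.38), as did Plcb1, at 0.11 (interval -0.10 to 0.32). Asic1 and Tenm4 had 0.03 each, with intervals of -0.16 to 0.23 and -0.16 to 0.22. Intervals of this width do not show that the factors act alike. Over 15 alternatives the smallest adjusted p of any member was 0.221.

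**Figure D3:**
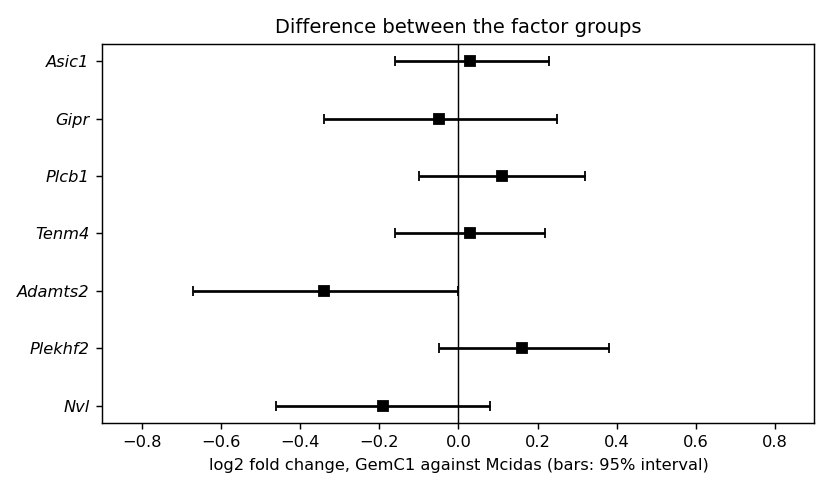
Log2 fold change of GemC1 against Mcidas (horizontal axis) for the 7 genes, with the 95% interval of each. All 7 intervals reach 0, from Adamts2 at -0.34 to Plekhf2 at 0.16.

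Levels per length set the members far apart. In GFP, Plekhf2 had 77.0 ± 2.84 CPM per kb of exon (SD, n = 3), Plcb1 29.8 ± 1.86, Tenm4 21.5 ± 1.74, Gipr 10.1 ± 1.27, Asic1 9.69 ± 0.463, Nvl 5.25 ± 0.476 and Adamts2 3.02 ± 0.376. Gipr and Asic1 did not differ beyond their spread, and the other neighbours in this order stood apart by more than 1 SD. The order was the same in GemC1 and Mcidas except for Gipr and Asic1, with 6.62 ± 0.539 and 7.14 ± 0.448 CPM per kb in GemC1 and 6.83 ± 0.888 and 6.98 ± 0.135 in Mcidas. On this scale Plekhf2 stood above 97.5% of tested genes in GFP and Adamts2 above 43.8%.

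The members were long genes in the main. Tenm4 and Plcb1 span 739.8 and 689.2 kb, more than 99.5% and 99.4% of tested genes, and Adamts2 spans 205.5 kb, whereas Gipr spans 10.1 kb and Plekhf2 19.3 kb. The median span was 57.1 kb for the members and 16.0 kb for tested genes, and the median exon length was 9336 and 3513 bases. These are descriptions of a chosen set. Longer transcripts also collect more counts.

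The flanking genes were examined to see whether the change extended beyond each locus. The nearest protein-coding gene without overlap was taken on each side, 14 in all, of which 13 were tested and 9130409I23Rik, beside Nvl, had 0 counts in each library. Gaps ran from 0.49 kb (Cnih4, beside Nvl) to 3089.38 kb (Fam181b, beside Tenm4). A gene as far off as Fam181b cannot show whether a change extended beyond the locus. Of the 13, 1 fell and 0 rose in GemC1 (background 1.32% lower and 3.86% higher), and 1 fell and 1 rose in Mcidas (0.327% and 4.03%). Their median was 0.09 in GemC1 and -0.01 in Mcidas.

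Cnih4, which encodes a cornichon protein of vesicle export, is transcribed away from Nvl, with the annotated genes 0.49 kb apart. It had 23.3, 28.2 and 24.3 CPM in GemC1, 19.6, 20.8 and 21.7 CPM in Mcidas, and 28.7, 33.3 and 33.0 CPM in GFP. It fell by 0.62 ± 0.12 (SE, log2) in Mcidas (edgeR adjusted p = 0.0082) and had -0.33 ± 0.12 in GemC1 (adjusted p = 0.147). The Mcidas call was lost without GFP replicate 2 (-0.56, adjusted p = 0.057).

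Zfp354c, a zinc finger gene 3.51 kb beyond Adamts2, fell by 0.46 ± 0.10 (SE, log2) in GemC1 (edgeR adjusted p = 0.0144) and had -0.16 ± 0.10 in Mcidas (adjusted p = 0.594). Its call was lost without GFP replicate 2 (adjusted p = 0.0692) and without GFP replicate 3 (adjusted p = 0.0899). Beside Plekhf2, at 89.24 kb, 2610301B20Rik rose by 0.81 ± 0.17 in Mcidas (adjusted p = 0.0135) and had 0.63 ± 0.17 in GemC1 (adjusted p = 0.0545). That call was lost without Mcidas replicate 2 (adjusted p = 0.0817), Mcidas replicate 3 (0.0794) or GFP replicate 1 (0.0764). Plcb4, the paralog that follows Plcb1 after 183.75 kb, had 0.20 ± 0.13 in GemC1 and 0.19 ± 0.13 in Mcidas (adjusted p = 0.412 and 0.622).

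**Figure D4:**
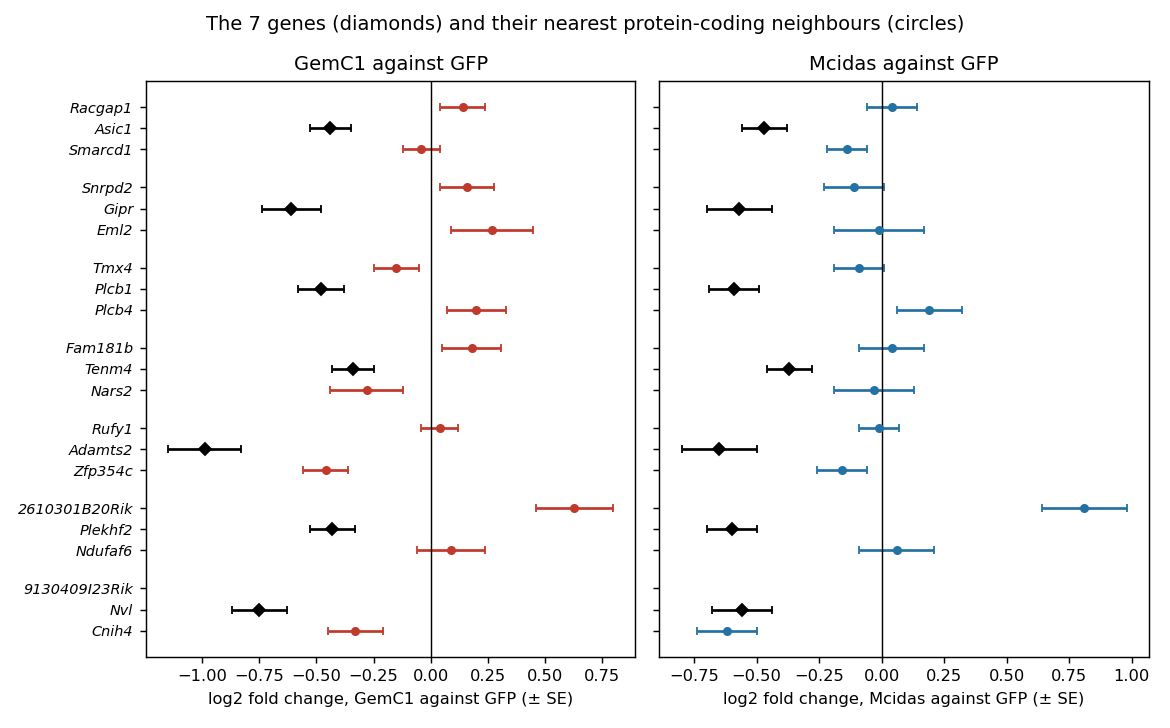
Log2 fold change against GFP (horizontal axes, ± SE) of each of the 7 genes (diamonds) and its nearest protein-coding neighbours (circles), for GemC1 on the left and Mcidas on the right; the untested 9130409I23Rik has no point. Cnih4 beside Nvl, at -0.62, is the neighbour furthest below 0 in Mcidas, and Zfp354c beside Adamts2, at -0.46, in GemC1.

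For each member a list of pathway partners was drawn up from general knowledge, 149 distinct genes in all, of which 131 were tested. In GemC1, 1 rose and 2 fell, and in Mcidas 4 rose and 0 fell (background as above; in Mcidas, DESeq2 also called 0 lower). The median partner had -0.03 in GemC1 and -0.03 in Mcidas. None was called in GemC1 against Mcidas, where DESeq2 called 5 lower in GemC1. Without any 1 of GemC1 replicates 2 and 3 and GFP replicates 2 and 3, 0 partners fell in GemC1, and 1 did without Mcidas replicate 2 or Mcidas replicate 3. Without Mcidas replicate 2 or GFP replicate 2, 2 partners rose in Mcidas.

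Around Nvl the partners barely moved. None of the 28 tested genes of large-subunit assembly and the RNA exosome was called with either factor. Their fold changes ran from -0.24 to 0.18 in GemC1 and from -0.26 to 0.10 in Mcidas. Nvl, at -0.75 and -0.56, lay outside both ranges. It was picked for these falls and the partners were not, so the contrast is no support. Vcp, the ATPase related to Nvl, had 0.07 ± 0.08 (SE) in GemC1 and 0.05 ± 0.08 in Mcidas. None of 26 tested genes of endosomal PI3P and FYVE proteins was called, with ranges of -0.47 to 0.46 in GemC1 and -0.28 to 0.60 in Mcidas. Plekhf2 lay inside its partners' range in GemC1 (-0.43) and outside it in Mcidas (-0.60). Gipr, Plcb1 and Adamts2 lay inside the ranges of their partners in both comparisons, Tenm4 in GemC1 only and Asic1 in neither. Plekhf1, the paralog of Plekhf2, was near the detection limit at 0.732 CPM in GemC1, 0.929 CPM in Mcidas and 0.604 CPM in GFP.

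Of the 21 tested partners of Plcb1 in Gq signalling, Prkca, a protein kinase C that diacylglycerol activates, was the gene called, and it was higher with both factors. It had 20.3, 22.2 and 21.0 CPM in GemC1, 23.1, 22.7 and 21.4 CPM in Mcidas, and 11.3, 14.8 and 13.1 CPM in GFP. Each factor library lay above each GFP library, while the factor groups overlapped each other. The share of all tested genes lying above GFP in this way was not computed. The rise was 0.70 ± 0.13 (SE, log2) in GemC1 (edgeR adjusted p = 0.00801) and 0.78 ± 0.13 in Mcidas (adjusted p = 0.00293), and both calls held in 15 of 15 alternatives. The paralog Plcb3 had 0.28 ± 0.12 and -0.08 ± 0.12 (adjusted p = 0.212 and 0.874), and Plcb2 was at 0.531 CPM in GemC1, 0.104 CPM in Mcidas and 0.147 CPM in GFP.

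Of the 13 tested partners of Tenm4, 2 fell in GemC1 and 0 in Mcidas. The median of the 13 was -0.29 in GemC1 and -0.19 in Mcidas, against 0.00 and -0.03 over all genes. The 22 markers of cortical excitatory neurons had medians of -0.30 in GemC1 and -0.17 in Mcidas, and their part in the values of these partners was not tested. Flrt3, an adhesion and guidance protein that binds latrophilins, had 82.4, 40.4 and 59.1 CPM in GemC1, 106, 147 and 80.6 CPM in Mcidas, and 121, 122 and 140 CPM in GFP. All GemC1 libraries were below all GFP libraries, whereas Mcidas overlapped with GFP. It fell by 1.07 ± 0.25 (SE, log2) in GemC1 (edgeR adjusted p = 0.0308) and had -0.19 ± 0.24 in Mcidas (adjusted p = 0.851). The latrophilin gene Adgrl2 fell by 0.29 ± 0.08 in GemC1 (adjusted p = 0.0433) and had -0.08 ± 0.08 in Mcidas (adjusted p = 0.788). The call of Flrt3 was lost in 7 of 15 alternatives (adjusted p up to 0.169), among them those without GemC1 replicate 2 or 3, Mcidas replicate 1, or GFP replicate 2 or 3. That of Adgrl2 was lost in 10 of 15 (adjusted p up to 0.198), including the removal of any library but Mcidas replicate 1. Among the other teneurins, Tenm2 had -0.39 ± 0.12 in GemC1 and 0.21 ± 0.12 in Mcidas, Tenm3 had -0.48 ± 0.18 and -0.05 ± 0.18, and Tenm1 had 0.49 ± 0.24 and 0.15 ± 0.24, none of them called.

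Among 25 tested class B receptors and cAMP components beside Gipr, 0 were called in GemC1 and 2 in Mcidas, both higher. Gnal, a G protein alpha subunit that activates adenylyl cyclase, rose by 1.02 ± 0.20 (SE, log2; edgeR adjusted p = 0.00794), and Prkar2b, a regulatory subunit of protein kinase A, by 0.44 ± 0.09 (adjusted p = 0.0112). In GemC1 they had 0.60 ± 0.20 (adjusted p = 0.107) and -0.03 ± 0.09 (adjusted p = 0.885). The Prkar2b call was lost without Mcidas replicate 2 (adjusted p = 0.0758) or GFP replicate 2 (adjusted p = 0.0605).

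Partners of Adamts2 and Asic1 were mostly low or uncalled. None of 16 tested genes of procollagen processing, fibrillar collagens and reelin was called, and Adamts3, the paralog of Adamts2 that passed the filter, had -0.34 ± 0.19 (SE) in GemC1 and -0.01 ± 0.19 in Mcidas. Adamts14 stood at 0.0118 CPM in GemC1, 0.0144 CPM in Mcidas and 0.08 CPM in GFP. Of the channel genes related to Asic1, 2 of 7 were tested. Asic2 had 0.24 ± 0.41 in GemC1 and 0.00 ± 0.41 in Mcidas, at a level of 1.53 CPM in GFP. Scnn1a, a subunit of the epithelial sodium channel, averaged 2.11 CPM in GemC1, 2.66 CPM in Mcidas and 0.429 CPM in GFP, and its call in Mcidas (2.59 ± 0.67, edgeR adjusted p = 0.0481) was lost in 9 of 15 alternatives, including the removal of any library but Mcidas replicate 1 (adjusted p up to 0.266).

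**Figure D5:**
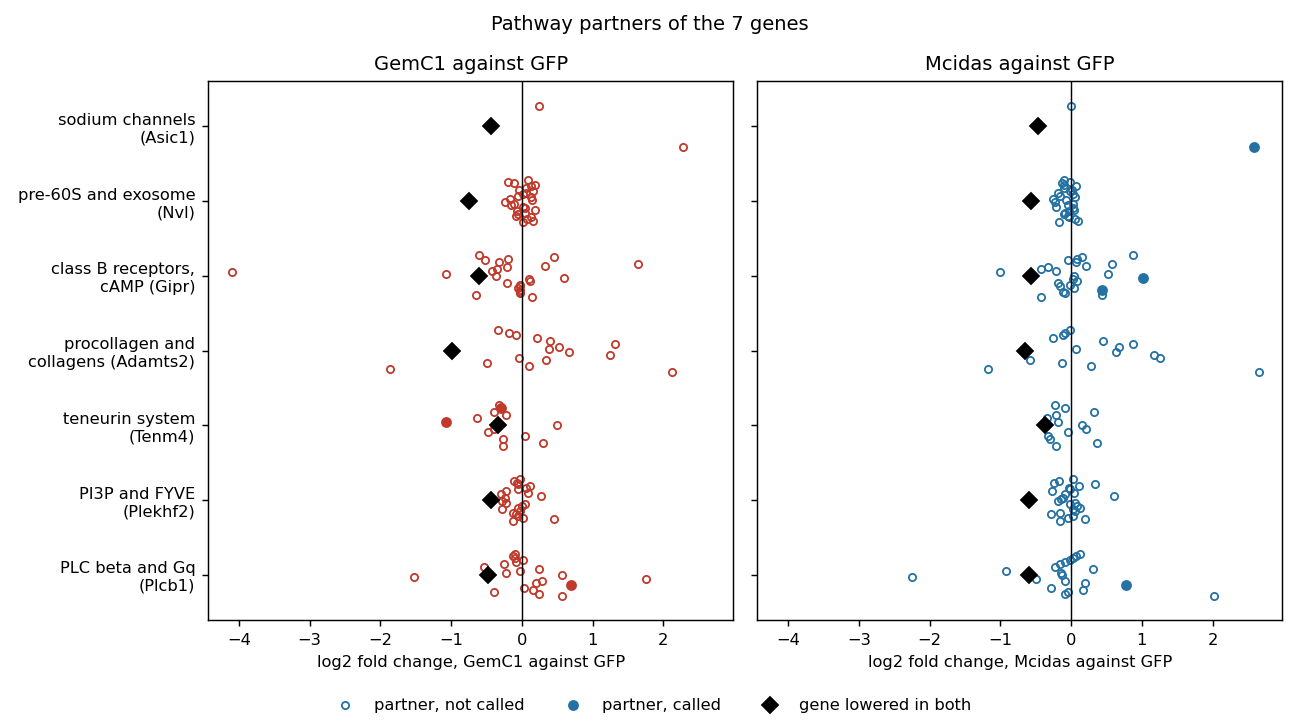
Log2 fold change against GFP (horizontal axes, one scale) of the tested partners of each gene (circles, filled where called) and of the gene itself (black diamond), for GemC1 on the left and Mcidas on the right. The 28 partners of Nvl stay between -0.26 and 0.18, and Nvl sits at -0.75 and -0.56, the values it was picked on.

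The genes with the most similar profile were found by the root mean square difference of centred log2 CPM over the 9 libraries, among 11723 genes. Nearest to the mean profile of the members were Foxp1 (0.108), Brsk1 (0.116), Nectin1 (0.122), Celsr2 (0.122) and Cntnap2 (0.123). Foxp1, a forkhead transcription factor of cortical neurons, averaged 25.5 CPM in GemC1, 26.1 CPM in Mcidas and 33.2 CPM in GFP. Celsr2, an adhesion cadherin of planar polarity, averaged 215 CPM in GemC1, 223 CPM in Mcidas and 298 CPM in GFP. Genes found by likeness to members chosen for a fall must be lower with both factors too, so these levels are no separate result.

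Single members had neighbours of their own. Tenm4 had the closest, with Abhd5 at 0.059 and Palmd at 0.064. Asic1 lay nearest to Shb and Zfp157 (0.097 each), Gipr to Pcdhb17 (0.102) and Sh2d4b (0.12), Plekhf2 to Carmil3 and Hs3st1 (0.115 each) and Plcb1 to Disp3 (0.12) and Cldn3 (0.124). Nvl lay nearest to Adamts7 (0.126) and Epc2 (0.141). Adamts2 had no gene as close, with Lrrc75b at 0.207 and Dtwd2 at 0.209. The difference is not scaled to the size of the fall, which was smallest for Tenm4 and, in GemC1, largest for Adamts2. How close the nearest genes came is therefore not comparable between members.

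Markers of cell types moved with the groups as well. In bulk samples, fewer cells of a type and less RNA per cell cannot be told apart. The 22 markers of cortical excitatory neurons summed to between 6780 and 7630 CPM in GemC1 and between 7610 and 8320 CPM in Mcidas. In GFP replicates 1, 2 and 3 they summed to 8330, 8500 and 9830 CPM. Mcidas replicate 1, at 8320 CPM, was nearly level with GFP replicate 1, so the Mcidas and GFP sums barely separated. Of these markers, 21 of 22 were below 0 in GemC1 with 5 called lower, and 20 of 22 in Mcidas with 1 called lower, with medians of -0.30 and -0.17. The 15 radial glia markers summed to 2510 to 2760 CPM in GemC1, 1830 to 2380 CPM in Mcidas and 1690 to 2310 CPM in GFP, with 1 called higher in GemC1 and 1 higher and 1 lower in Mcidas. The 10 intermediate progenitor markers summed to 1680 to 1890 CPM in GemC1, 1480 to 1860 CPM in Mcidas and 1780 to 1870 CPM in GFP, with 1 called higher and 1 lower in GemC1 and 0 in Mcidas.

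The 12 microglia and macrophage markers summed to 48.7 to 83.3 CPM in GemC1, 33.0 to 52.2 CPM in Mcidas and 21.3 to 31.0 CPM in GFP, with 8 of 11 tested called higher in GemC1 and 2 in Mcidas. The 10 interneuron markers summed to 150 to 216 CPM in GemC1, 139 to 234 CPM in Mcidas and 136 to 199 CPM in GFP, with none called. The 8 endothelial markers summed to 0.757 to 1.38 CPM in GemC1, 1.21 to 4.72 CPM in Mcidas and 1.33 to 2.61 CPM in GFP, with none called; Kdr, Tek and Ly6c1 were at 0 in GemC1 and Ly6c1 in GFP. None of the tested markers of pericytes, meningeal fibroblasts, oligodendrocyte precursors or erythroid cells was called. Of the choroid plexus markers 1 of 2 tested, Clic6, was called higher with both factors. Ttr was near 0 in all groups, at 0 CPM in GemC1, 0.0096 CPM in Mcidas and 0.0082 CPM in GFP. The part of these cell type differences in the fall of the 7 members was not tested.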

How the data were processed

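RNA was measured in 9 libraries of sorted forebrain cells, 3 each for GemC1, Mcidas and GFP. Per the labels, 10 ng of RNA was amplified with SMART-Seq v4 and 150 pg of cDNA was made into Nextera XT libraries read for 75 bp. These kits do not mark strand. The files hold unnormalized counts of reads for each Ensembl identifier, as deposited by the authors and per the file headers. The mm10 build and the tools HTSeq 0.5.3, STAR 2.5.2b and DESeq2 1.8.1 are listed, per the submitters' processing notes, without roles. The annotation release and strand setting were not stated in any source used here. Of 53379 identifiers, 53274 matched GENCODE M21 (GRCm38, the assembly of mm10), and the other 105 held at most 0.0676% of a library.

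After filterByExpr at a minimum count of 10 and a minimum total of 15, 19572 genes remained, all 7 members among them. A single edgeR 4.0.16 quasi-likelihood fit (R 4.3.3, TMM factors 0.96 to 1.035, robust, two-sided) held all 9 libraries with group as the only term, p-values were adjusted over all genes tested, and SE was derived from F. CPM was computed from the counts with TMM scaling, and log2 CPM with a prior count of 2. Levels per length use the exon union. Alternatives were DESeq2 1.42.0, DESeq2 size factors in edgeR, no or a stricter filter (minimum count 50), the replicate number as a block, only the groups compared, and each library left out. The fit was tested on simulated data. Each replicate pair within a group varied beyond counting noise, with chi-square over its degrees of freedom at 14.09 to 25.84. Counting limits cover counting error only, as amplified reads are not independent molecules.

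The members and gene lists were chosen with earlier results of these data known. Genes named are the members, their paralogs, called partners (at most 4 per list) and called neighbours. The nearest profiles are named too (2 per member and 5 for the mean, mean log2 CPM of at least 1, no placeholder symbols). Genes sharing exon bases with a member, and Fam181b, were named from the annotation. Frmd6, Hist3h2a, 9130409I23Rik and the single cell type markers (Clic6, Ttr, Kdr, Tek and Ly6c1) were named after their values were seen.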

Additional observations from a re-analysis of the deposited data

How the results depend on the processing

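Against GFP, the 7 members kept a negative fold change in each of the 15 alternatives, and in GemC1 against Mcidas 0 members were called in any of them. The kept sign is no support, as the members were picked on these values and each factor library lay below each GFP library. The number of calls depended on the setting. The replicate numbers did not pair the libraries (correlations of deviations from -0.074 to 0.046). With the replicate block, 4 members were lower in GemC1, 4 in Mcidas and 3 in both, and 4 genes of all tested were lower in both. Leaving out 1 library gave 2 to 7 members lower in GemC1, 3 to 7 in Mcidas and 0 to 7 in both, with 1 to 11 of all genes lower in both. Genes lower in both numbered 24 with DESeq2 and 29 with no low-count filter.

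Over all genes, 663 were lower in GemC1 than in GFP with DESeq2, 557 with no filter, 147 with the replicate block and 32 to 267 without 1 library, against 259. Higher calls were 1154 with DESeq2 and 443 to 877 without 1 library, against 756. In Mcidas, lower calls were 127 with DESeq2, 123 with no filter and 29 to 99 without 1 library, against 64. In GemC1 against Mcidas, lower calls were 298 with DESeq2, 129 with no filter, 3 with the replicate block, 2 with only the groups compared and 1 to 8 without 1 library, against 7, and higher calls 196, 66 and 3 to 5 for DESeq2, no filter and without 1 library, against 3.

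Partners lower in GemC1 were 7 with DESeq2, 6 with no filter, 0 with the replicate block and 0 to 3 without 1 library, against 2; higher ones were 4, 3, 2 with the block, 2 with only the groups compared and 1 to 2, against 1. In Mcidas, 0 to 1 were lower and 2 to 6 higher without 1 library. In GemC1 against Mcidas, DESeq2 called 5 lower and no filter 4. Neighbours called higher in GemC1 were 1 with DESeq2, no filter, the stricter filter, the replicate block and only the groups compared, and 0 to 1 without 1 library, against 0. Without 1 library, 0 to 1 neighbours were lower in GemC1, and 0 to 1 lower and 0 to 1 higher in Mcidas. The cause of these shifts was not tested.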
